A study of Homo sapiens with 4 samples.

Results

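The Wnt and Notch pathways are the 2 signalling systems described here, as measured in A549 cells, a human lung adenocarcinoma line, with and without overexpression of let-7a-3, which encodes a microRNA of the let-7 family. Members were the probes with exactly 1 gene symbol in the platform annotation whose symbol is that of a Wnt or Notch ligand, receptor, secreted inhibitor, transducer, nuclear factor or direct repressor gene. This gave 113 of 26629 probes and 66 of 12483 genes. The Wnt side held 79 probes of 45 genes and the Notch side 34 probes of 21 genes. The rule uses symbols and no measured value, but it was written with earlier results of these data known. Of the 66 genes 44 had a single probe.

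Each of 4 two-colour cDNA arrays held a culture transfected with let-7a-3 and a parental A549 culture, which was the control. Per the labels the cells were grown in DMEM with serum and were otherwise untreated, and the 2 series of numbered RNA sources had their dyes exchanged on arrays 2 and 4 relative to arrays 1 and 3. The labels name no empty-vector control and do not give the number of transfected lines behind the cultures. Nothing in them says how separate the numbered RNA sources were, so p-values measure the spread between these arrays, which may be technical.

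The deposited values are log ratios of the 2 channels. The sources used here do not give their base, their numerator or the orientation of the arrays, so no fold change is printed. It is therefore unknown whether a positive value means more RNA in the let-7a-3 or in the parental cultures, and all signs below could be turned together. Each probe was described by the mean over the 4 arrays, called the shared component, and by a part whose sign follows the dyes, called the alternating component and given with the sign of arrays 1 and 3. The labels do not settle which of the 2 carries the let-7a-3 effect. Both were tested two-sided in limma. P-values were adjusted by Benjamini and Hochberg over the whole set of probes, or of genes, with a threshold of 0.05. Over all probes the medians of the arrays lay between -0.0022 and 0.0174 and the median size of the shared component was 0.051. The table holds no intensities, so neither a level nor the identity of the cells could be checked. In ratio, 1 of 4 epithelial markers passed in the shared component and 0 of 4 fibroblast, 0 of 4 endothelial and 0 of 3 blood markers did in limma. At an unadjusted p under 0.05 these were 1, 1, 1 and 0. In the alternating component 1 endothelial marker passed and none of the other 3 lists had a call, with 1, 1, 2 and 0 at an unadjusted p under 0.05.

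Wnt proteins are secreted ligands that bind a Frizzled receptor together with the co-receptor LRP5 or LRP6. Binding stops the complex of AXIN and APC from marking beta-catenin for destruction, and beta-catenin then joins TCF/LEF factors on DNA. R-spondins act through LGR receptors to keep Frizzled at the cell surface, and DKK and SFRP proteins restrain the pathway outside the cell. Notch receptors are activated by Jagged and Delta ligands on a neighbouring cell, after which the cut intracellular part joins RBPJ and a Mastermind protein and switches on HES and HEY repressor genes. In the airway Notch signalling is known for its role in the choice between secretory and ciliated fates, and Wnt signalling for its role in alveolar progenitors.

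The overexpressed gene lies on chromosome 22 (GRCh38.p14, plus strand). Its mature products, from RefSeq, are shown because they are what the cultures were made to express. Capitals mark the seed, bases 2 to 8.
hsa-let-7a-5p: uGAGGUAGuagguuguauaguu
hsa-let-7a-3p: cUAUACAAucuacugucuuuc
The first lies at chr22:46112752-46112773 and the second at chr22:46112800-46112820. No probe was named for the let-7a-3 gene, so its overexpression could not be checked here.

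Promoter windows are shown for DKK1, the most positive Wnt probe, for NOTCH3 and JAG1, the most positive and the most negative Notch probes in the shared component, and for HEYL and HES1, which encode repressors that Notch is known to switch on. No window was available for SFRP1, the gene of the most negative Wnt probe. Each window shown runs from 250 bases before to 50 after the RefSeq start on GRCh38.p14. Capitals mark CTTTGAT or CTTTGAA, letters bound by TCF/LEF factors, and TGGGAA, the core letters bound by RBPJ, on either strand. The motifs do not overlap here.
DKK1: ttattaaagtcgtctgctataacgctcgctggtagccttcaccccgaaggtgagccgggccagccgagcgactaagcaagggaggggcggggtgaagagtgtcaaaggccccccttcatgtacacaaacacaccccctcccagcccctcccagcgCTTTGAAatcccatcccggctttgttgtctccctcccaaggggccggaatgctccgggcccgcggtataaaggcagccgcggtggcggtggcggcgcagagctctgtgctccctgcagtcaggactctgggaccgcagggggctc
NOTCH3: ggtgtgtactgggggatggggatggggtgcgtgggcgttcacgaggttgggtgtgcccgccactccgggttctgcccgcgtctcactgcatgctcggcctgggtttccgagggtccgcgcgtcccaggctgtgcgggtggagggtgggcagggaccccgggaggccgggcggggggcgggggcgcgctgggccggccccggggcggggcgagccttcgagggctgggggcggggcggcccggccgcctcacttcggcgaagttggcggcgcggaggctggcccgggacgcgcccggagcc
JAG1: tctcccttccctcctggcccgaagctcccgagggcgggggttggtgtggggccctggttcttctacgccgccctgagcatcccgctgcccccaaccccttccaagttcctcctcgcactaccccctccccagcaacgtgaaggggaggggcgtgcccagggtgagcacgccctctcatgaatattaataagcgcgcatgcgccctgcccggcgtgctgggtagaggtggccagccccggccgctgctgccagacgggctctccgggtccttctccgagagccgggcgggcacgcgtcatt
HEYL: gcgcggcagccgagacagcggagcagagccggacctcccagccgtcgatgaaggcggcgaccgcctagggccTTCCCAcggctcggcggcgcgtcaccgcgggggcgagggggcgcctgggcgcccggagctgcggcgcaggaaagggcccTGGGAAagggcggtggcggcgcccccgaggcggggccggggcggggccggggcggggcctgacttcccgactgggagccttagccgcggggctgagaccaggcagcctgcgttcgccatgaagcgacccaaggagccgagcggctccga
HES1: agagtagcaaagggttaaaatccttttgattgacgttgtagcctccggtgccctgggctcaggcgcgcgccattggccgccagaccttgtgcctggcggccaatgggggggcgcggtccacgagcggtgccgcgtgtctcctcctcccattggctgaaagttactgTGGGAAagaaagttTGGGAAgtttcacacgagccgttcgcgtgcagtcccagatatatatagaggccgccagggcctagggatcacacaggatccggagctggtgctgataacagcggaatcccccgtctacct
The windows are chr10:52314031-52314330 (DKK1, plus strand), chr19:15200946-15201245 (NOTCH3, minus strand), chr20:10673950-10674249 (JAG1, minus strand), chr1:39639594-39639893 (HEYL, minus strand) and chr3:194135898-194136197 (HES1, plus strand). The DKK1 window held CTTTGAA once, starting 95 bases before the start. Either TCF/LEF form was present in 6.86% of 35116 windows. The HEYL window held TGGGAA at 2 places and so did that of HES1, where they start 84 and 70 bases before the start. One or more TGGGAA stood in 24% of all windows and 2 or more in 3.8%. The NOTCH3 and JAG1 windows held none of the 3 motifs. Of the 13 genes with a call at the probe or gene level, 10 had a window, of which 1 held a TCF/LEF form and 2 held TGGGAA. A match is a run of letters and not a measured site.

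In the shared component 8 of the 113 member probes passed (7.08%), against 2.07% of all probes. DKK1, NOTCH3 and a probe of LGR4 were positive, and probes of SFRP1, JAG1, DKK3, RSPO2 and RSPO3 were negative. Among positive calls this was 3 of 113 against 1.12% of all probes, and among negative calls 5 of 113 against 0.946%. At an unadjusted p under 0.05 the members stood at 14.2% and all probes at 12.5%, so beyond these few probes the members lay close to the rest. The median of the members was 0.0035, against 0.0081 over all probes, and 87 of the 113 lay within 0.1 of 0. Of the member probes 17 had 1 sign on all 4 arrays (15.0%, against 14.1% of all probes). Fewer passed when array 2 or array 4 was left out. The share of all probes in those fits is not given here, so the fall is not read as particular to the members. A model without the dye term gave 3 calls. That last model called 0.867% of all probes, so calls fell outside the members too.

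**Figure D1:**
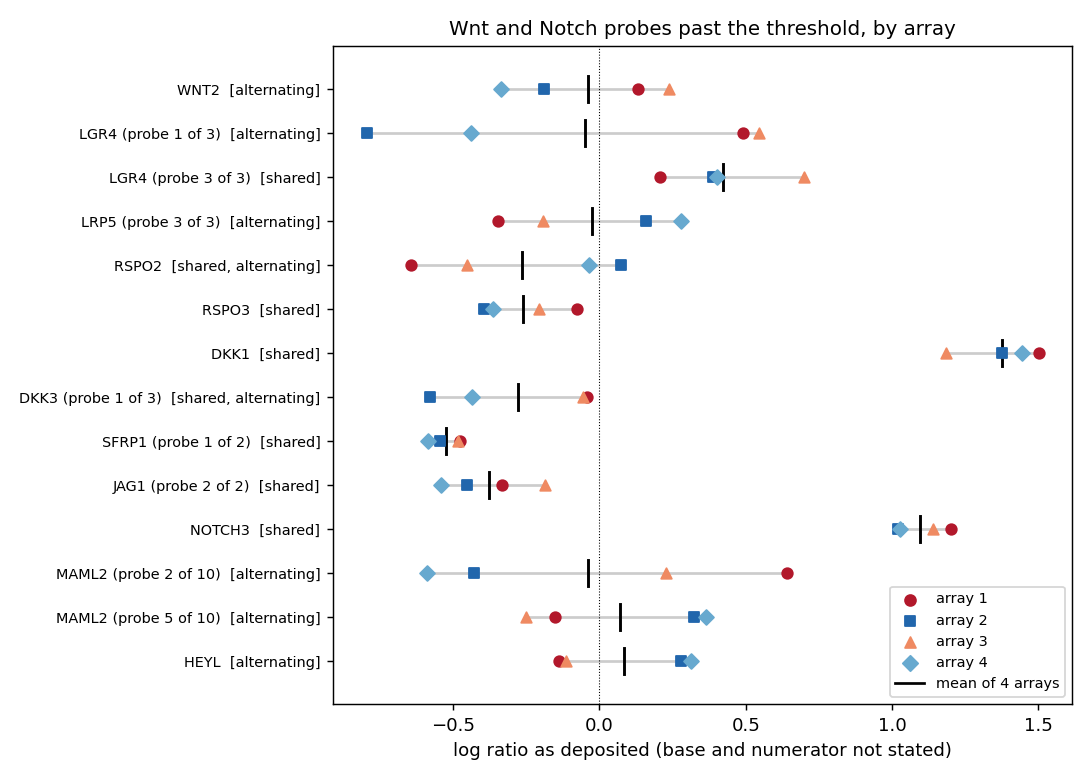
Log ratio as deposited (horizontal axis) on each of the 4 arrays (symbols) for the 14 Wnt and Notch probes past a limma adjusted p of 0.05, with the component in which each passed in brackets and the mean as a black bar. DKK1 and NOTCH3 stand above 1 on all 4 arrays, SFRP1 probe 1 stands between -0.59 and -0.48, and the probes marked alternating have arrays 1 and 3 on one side of the mean and arrays 2 and 4 on the other.

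Among the secreted inhibitors DKK1, a protein-coding gene at chr10:52314281-52317657 (GRCh38.p14) whose product binds and blocks LRP5 and LRP6, had log ratios of 1.50, 1.38, 1.18 and 1.45 on arrays 1 to 4. All 4 arrays were high and of 1 sign, and did not split by dye orientation. The mean was 1.38 ± 0.14 (SD, n = 4; limma adjusted p = 6.29e-06), which ranked 4 by size among all 26629 probes. The alternating component of DKK1 was -0.034 (adjusted p = 0.764). Its single probe leaves no second clone for comparison.

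SFRP1, which binds Wnt ligands outside the cell, had log ratios of -0.48, -0.54, -0.48 and -0.59 in probe 1 of 2. The 4 arrays lay close together, on the opposite side of 0 from DKK1. The mean was -0.52 ± 0.052 (SD, n = 4; limma adjusted p = 0.000474), rank 141 by size. The second SFRP1 probe gave -0.27, 0.14, -0.055 and 0.079, with a mean of -0.025 (adjusted p = 0.888). Its arrays fell on both sides of 0. Averaged over both probes, SFRP1 was at -0.27 ± 0.072 (gene-level adjusted p = 0.0133), a call lost when array 2 or array 4 was left out (adjusted p up to 0.0940) and in the model with no dye term.

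DKK3, a relative of DKK1 that is not known as an LRP blocker of the same kind, gave -0.041, -0.58, -0.055 and -0.44 in probe 1 of 3. Arrays 2 and 4 were low and arrays 1 and 3 near 0, so the probe passed in both components, at -0.28 (adjusted p = 0.0277) in the shared and 0.23 (adjusted p = 0.0431) in the alternating one. The shared call was lost without array 1, 2 or 4 and without the dye term, the alternating call without any 1 of the arrays or the dye term. The other DKK3 probes had shared means of 0.018 and 0.044, and the gene mean was -0.072 (adjusted p = 0.479). SFRP4 (-0.14, adjusted p = 0.254), WIF1 (0.045, adjusted p = 0.790) and DKK4 (0.018, adjusted p = 0.929), the other inhibitors measured, did not pass. In all, 3 of 9 probes for secreted inhibitors passed in the shared component (33.3%, against 2.07% of all probes), 1 positive and 2 negative.

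In the R-spondin arm RSPO3, a ligand of the LGR receptors, had log ratios of -0.078, -0.39, -0.21 and -0.36. All 4 arrays were negative, arrays 2 and 4 more so. The mean was -0.26 ± 0.15 (SD, n = 4; limma adjusted p = 0.0356), a call lost without array 2, 3 or 4 and without the dye term. RSPO2, a ligand of the same receptors, gave -0.64, 0.073, -0.45 and -0.034, with arrays 1 and 3 low and arrays 2 and 4 near 0. It passed in both components, at -0.26 (adjusted p = 0.0451) in the shared and -0.28 (adjusted p = 0.0310) in the alternating one. The shared call was lost without array 1, 2 or 4, the alternating one without array 2 or 4, and both without the dye term.

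LGR4, one of the R-spondin receptors, had 3 probes that behaved differently. Probe 3 gave 0.21, 0.39, 0.70 and 0.40, all positive, with a mean of 0.42 ± 0.20 (SD, n = 4; limma adjusted p = 0.0224), lost without array 2 or 4 and without the dye term. Probe 1 gave 0.49, -0.79, 0.54 and -0.44, changing sign with the dyes. Its shared component was -0.049 (adjusted p = 0.807) and its alternating component 0.57 (adjusted p = 0.00904), the largest alternating value of the members. Probe 2 gave -0.40, 0.0052, 0.092 and -0.20, with no common sign and no call. Averaged over its probes LGR4 was at 0.083 ± 0.26 (gene-level adjusted p = 0.579) in the shared component and 0.19 (adjusted p = 0.104) in the alternating one. LGR5, a stem cell marker in the gut, had 5 probes between -0.12 and 0.054 in the shared component and LGR6 1 probe at 0.007, none past the threshold in either component.

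Among the Wnt receptors themselves no Frizzled probe passed. FZD2 had the lowest shared mean of them, -0.25 in probe 1 of 4 (-0.22, -0.015, -0.51 and -0.25 on the arrays; limma adjusted p = 0.115). All 4 arrays were negative but spread widely, and it passed without array 1. Its other probes lay between -0.089 and 0.072. FZD3 probe 2 had the highest, 0.15, with arrays between 0.12 and 0.18 (adjusted p = 0.229). The co-receptor LRP5 had a probe past the threshold in the alternating component, described below, and LRP6 was at -0.029 (adjusted p = 0.874). Of 29 probes for receptors, co-receptors and the R-spondin arm 1 passed as positive and 2 as negative in the shared component (10.3%, against 2.07% of all probes).

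None of the 17 Wnt ligand probes passed in the shared component in limma, and 2 had an unadjusted p under 0.05. They lay between -0.11 and 0.11. WNT3 probe 1 was the most even, with 0.13, 0.093, 0.081 and 0.15 (mean 0.11, adjusted p = 0.381). WNT5A, a ligand known for signalling without beta-catenin, was at 0.044 (adjusted p = 0.795).

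The intracellular transducers and nuclear factors gave no call in either component at the probe level in limma, though 3 alternatives did. For the 15 probes of DVL, AXIN, APC and CTNNB1 the shared component lay between -0.16 and 0.12, with 1 at an unadjusted p under 0.05, and 2 were under it in the alternating one. AXIN2, a negative regulator that Wnt signalling itself is known to induce, had log ratios of -0.50, 0.042, -0.087 and -0.12. Array 1 was the lowest and the others were near 0. The mean was -0.16 ± 0.23 (SD, n = 4; adjusted p = 0.382), and AXIN2 passed without array 3 at -0.27 (adjusted p = 0.0481). Without array 1 it was at -0.062 (adjusted p = 0.777), and no other alternative gave a call for AXIN2 at the probe level. Beta-catenin, CTNNB1, had 4 probes between -0.073 and 0.015 and a gene mean of -0.014 ± 0.079 (gene-level adjusted p = 0.911). APC, the scaffold of the destruction complex, was at 0.058 ± 0.070 over 3 probes (adjusted p = 0.604). LEF1 had 3 probes at -0.11, -0.069 and 0.12 and a gene mean of -0.020 (adjusted p = 0.898), and TCF7L2 had 6 between -0.088 and 0.14. For LEF1 and TCF7L2 0 of 9 probes had an unadjusted p under 0.05 in the shared component (12.5% of all probes did). In the alternating one it was 5 of 9, where 25.2% of all probes were under it. A probe of LEF1 passed there with quantile normalization at 0.25 (adjusted p = 0.0443) and without array 1 at 0.34 (adjusted p = 0.0205). Probes of TCF7L2 passed without array 1 at 0.27 and without array 3 at 0.31, and a CTNNB1 probe without array 1 at 0.32. In the fit without array 1, array 3 alone stands for its orientation, and without array 3, array 1 does. The AXIN2 call without array 3 has the same limit. The fit without array 1 called 7.04% of all probes, and that without array 3 called 4.25%.

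**Figure D2:**
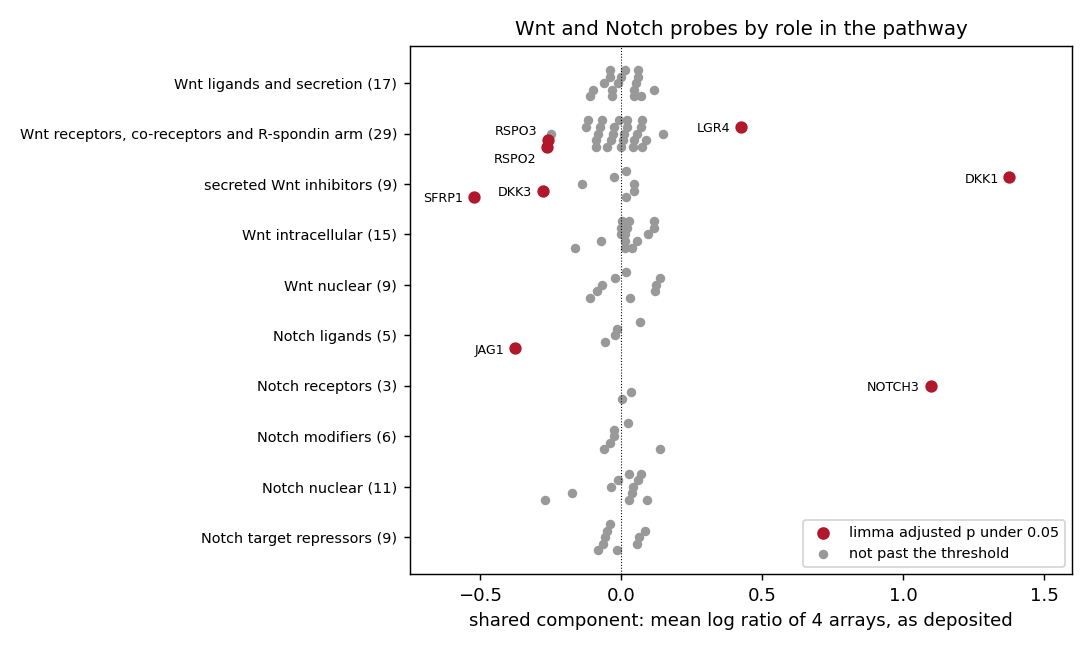
Shared component (mean log ratio of the 4 arrays as deposited, horizontal axis) of all 113 Wnt and Notch probes, in rows by role with the number of probes in brackets; red points passed a limma adjusted p of 0.05. DKK1 at 1.38 and NOTCH3 at 1.10 stand far from the other probes, which lie between -0.52 and 0.42.

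Among the Notch receptors NOTCH3, at chr19:15159038-15200995 (GRCh38.p14), had log ratios of 1.20, 1.02, 1.14 and 1.03. The 4 arrays were all high and lay close together. The mean was 1.10 ± 0.089 (SD, n = 4; limma adjusted p = 6.29e-06), rank 21 by size, and the alternating component was 0.073 (adjusted p = 0.371). Like DKK1 it had a single probe. NOTCH1 gave -0.040, -0.075, 0.15 and -0.021, scattered about 0 (mean 0.0035 ± 0.10, adjusted p = 0.986). NOTCH2 gave -0.13, 0.14, -0.061 and 0.20, with the sign of the dyes (mean 0.034 ± 0.16, adjusted p = 0.830; alternating -0.13, adjusted p = 0.144). NOTCH3 thus lay apart from both in the listed values, and a difference between receptors was not tested.

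JAG1, a ligand of these receptors at chr20:10637684-10673999, had log ratios of -0.33, -0.45, -0.18 and -0.54 in probe 2 of 2. All 4 arrays were negative, on the opposite side from NOTCH3. The mean was -0.38 ± 0.15 (SD, n = 4; limma adjusted p = 0.00564), a call narrowly lost without array 4 (adjusted p = 0.0505) and in the model without the dye term (adjusted p = 0.0532). The other JAG1 probe gave -0.099, 0.094, 0.068 and 0.20, mostly on the other side (mean 0.065, adjusted p = 0.674). Averaged over both, JAG1 was at -0.16 ± 0.068 (gene-level adjusted p = 0.130). Of the 9 alternatives this mean passed in 1, without array 3, where array 1 alone stands for its orientation. JAG2 (-0.021), DLL3 (-0.059) and DLL4 (-0.016) did not pass.

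The modifiers and nuclear partners of Notch gave no call in the shared component in limma, where 1 of 6 and 1 of 11 probes had an unadjusted p under 0.05. NUMB, an inhibitor of Notch, had 0.065, 0.086, 0.21 and 0.19 in probe 1, all positive (mean 0.14 ± 0.072, adjusted p = 0.314), and a second probe at -0.026. The fringe enzymes LFNG and MFNG, which add sugars to the receptors, lay between -0.060 and 0.025. MAML3, a Mastermind coactivator, gave -0.18, -0.0032, 0.21 and -1.10. Array 4 held the lowest value of any member on any array, and the mean of -0.27 ± 0.57 did not pass (adjusted p = 0.502). Without array 2, where array 4 alone stands for its orientation, MAML3 passed at -0.54 in the shared and 0.55 in the alternating component. Both calls were made at the probe and the gene level. Its gene value also passed at 0.38 (alternating) without array 1 and at -0.37 (shared) without array 3. Array 4 was part of each of these fits.

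Active Notch is known to switch on some of the HES and HEY repressors, HES1 among them, though not every one. Of their 9 probes 0 passed the threshold in the shared component in limma, and 0 had an unadjusted p under 0.05. HES1 gave -0.20, 0.074, -0.13 and -0.067 (mean -0.082 ± 0.12, adjusted p = 0.577). Arrays 1, 3 and 4 were negative and array 2 was positive. HEY1 lay at -0.014 and -0.050 in its probes (gene mean -0.032 ± 0.10, gene-level adjusted p = 0.807), and HES2, HES4, HES5, HES6, HEY2 and HEYL between -0.065 and 0.086. Neither gene mean passed in any of the 9 alternatives, which does not show that HES1 or HEY1 was unchanged.

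In the alternating component 8 of 113 probes passed (7.08%), against 4.28% of all probes, 4 positive and 4 negative, where 2.81% and 1.48% of all probes passed. At an unadjusted p under 0.05 the members stood at 28.3% and all probes at 25.2%, a share near the background. Its sign alternated with the dyes on all 4 arrays in 38 member probes (33.6%, against 28.8% of all probes). Fewer passed without array 2 or array 4, again given without the share of all probes. Dropping the dye term gave 1 call. The fit without the dye term called 0.383% of all probes, so here too calls fell outside the members.

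Beside LGR4, DKK3 and RSPO2, the alternating calls were MAML2, WNT2, LRP5 and HEYL. MAML2, a Mastermind coactivator, had 10 probes of which 2 passed with opposite signs. Probe 2 gave 0.64, -0.43, 0.23 and -0.59 (alternating component 0.47, limma adjusted p = 0.0155). Probe 5 gave -0.15, 0.32, -0.25 and 0.36, the reverse pattern (-0.27, adjusted p = 0.0290). Without array 4, or with no dye term, neither passed, and probe 5 did not pass without array 2 either. The mean of the 10 probes was 0.0076 (gene-level adjusted p = 0.931).

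WNT2, a ligand with a part in lung development, gave 0.13, -0.19, 0.24 and -0.34, high on arrays 1 and 3 (alternating component 0.22, limma adjusted p = 0.0494). The call was lost without array 2, 3 or 4 and without the dye term. LRP5 probe 3 gave -0.35, 0.16, -0.19 and 0.28, low on the same arrays (-0.24, adjusted p = 0.0416), and it did not pass without array 1, 2 or 4 or without the dye term. The other LRP5 probes were at 0.056 and -0.13, and the gene mean was -0.11 (adjusted p = 0.194). HEYL gave -0.14, 0.28, -0.11 and 0.31 (-0.21, adjusted p = 0.0463), a call lost without any 1 array, without the dye term and with the array medians subtracted. HES6, another repressor gene, was at -0.22 in this component and did not pass (limma adjusted p = 0.0562). Its gene value passed with medians of a gene's probes (adjusted p = 0.0469) and without array 1 or 3.

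**Figure D3:**
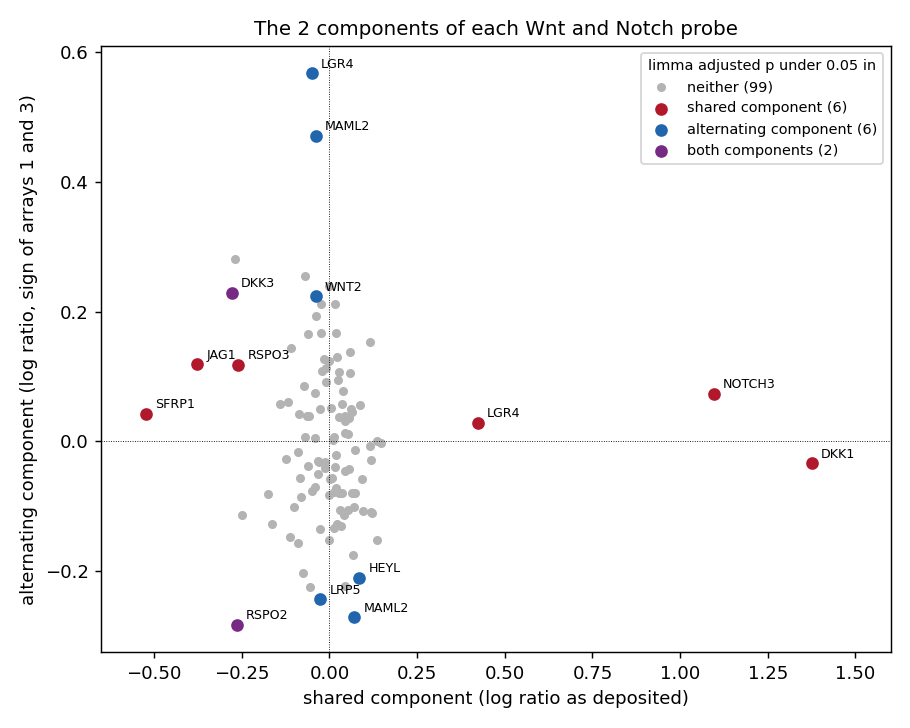
Shared component (horizontal axis) against alternating component (vertical axis, sign of arrays 1 and 3) of the 113 Wnt and Notch probes, both as deposited log ratios. Of the probes past a limma adjusted p of 0.05, 6 passed in the shared component only, 6 in the alternating component only and 2, DKK3 and RSPO2, in both.

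With the probes of a gene averaged, 5 of 66 genes passed in the shared component (7.58%, against 3.04% of all genes). DKK1 and NOTCH3 were positive, where 1.63% of all genes were, and SFRP1, RSPO2 and RSPO3 negative, where 1.41% were. LGR4, JAG1 and DKK3 dropped out, each with clones on both sides of 0. The count became 3 when array 2 was left out (1.43% of all genes were called in that fit), 2 for array 4 (1.63%) and 2 with no dye term (1.25%). Without array 3 it became 8, in a fit that called 11.8% of all genes. DKK1 and NOTCH3 were among the genes called in each. In the alternating component 4 of 66 passed (6.06%, against 3.29% of all genes), namely HEYL, RSPO2, WNT2 and WNT5A (-0.22, gene-level adjusted p = 0.0480). The single WNT5A probe gave -0.075, 0.27, -0.28 and 0.26 and did not pass at the probe level (limma adjusted p = 0.0527). Its gene-level call was lost without array 2 or 4, without the dye term and with the array medians subtracted. WNT2 was the positive one, where 1.9% of all genes were, and 3 were negative, where 1.39% were. In limma this count became 16 when array 1 was left out and 10 for array 3, in fits that called 18.4% and 12.7% of all genes. It became 1 for array 2 (0.312% of all genes), 0 for array 4 (0.553%) and 0 with no dye term (0.0801%). In the fits with 0 calls 9 and 15 member genes had an unadjusted p under 0.05.

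The clones of 1 gene often disagreed. Among 22 member genes with several probes, all probes had the same sign in 6 genes for the shared component and in 7 for the alternating one. In 4 genes (SFRP1, LGR4, JAG1 and DKK3) 1 probe passed in the shared component and no other probe of the gene did. The calls of DKK1, NOTCH3, RSPO2, RSPO3, WNT2 and HEYL, and the gene-level call of WNT5A, rest on single probes.

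**Figure D4:**
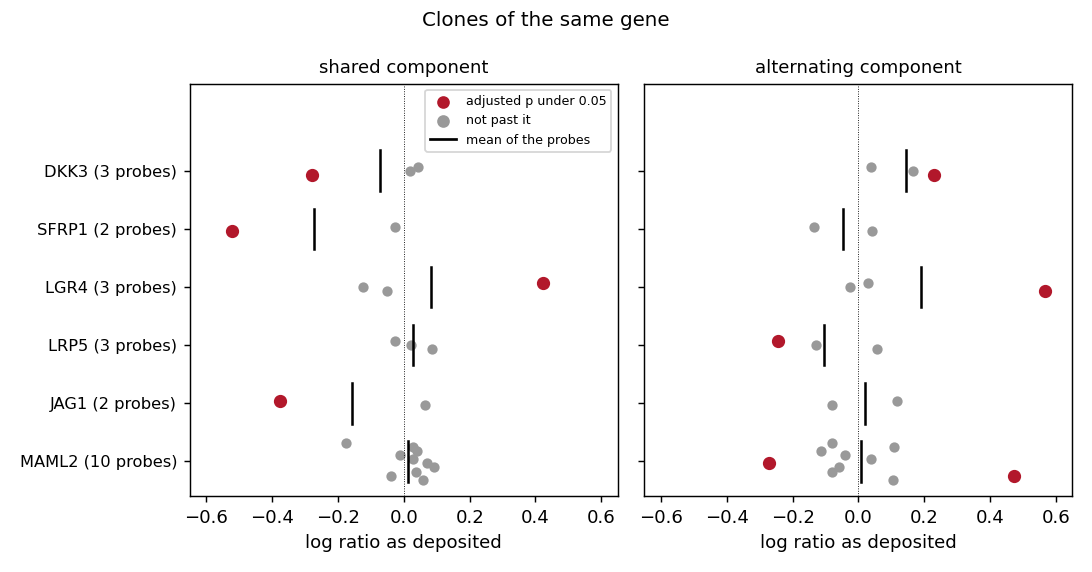
Shared (left) and alternating (right) component, as deposited log ratios, of every probe of the 6 member genes with several probes of which at least 1 passed; red points passed a limma adjusted p of 0.05 and black bars are the mean of the probes. In the shared component each red probe stands farther from 0 than the other clones of its gene, and the 2 red MAML2 probes in the alternating component lie on opposite sides of 0.

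Other genes of the same pathways were counted at the gene level. Of 57 further Wnt pathway genes DAAM2, a formin that binds Dishevelled, was positive in the shared component (0.21 ± 0.054, SD, n = 4; limma adjusted p = 0.0350) and STRAP negative (-0.25 ± 0.15, adjusted p = 0.0478). The single STRAP probe did not pass at the probe level (adjusted p = 0.0716). DAAM2 rests on 1 of its 3 probes, at 0.59, the others being at 0.060 and -0.018. In the alternating component WLS, which carries Wnt ligands to the cell surface, was positive (0.25, adjusted p = 0.0321), and CSNK1A1, a kinase that marks beta-catenin, negative (-0.21, adjusted p = 0.0395). These calls made up 3.51% of the 57 genes in each component. That is near the share of all genes, 3.04% in the shared and 3.29% in the alternating component. At an unadjusted p under 0.05 these 57 genes were 4 in the shared and 14 in the alternating component. The next list, of known Wnt target genes, holds no member of the set, so DKK1 and AXIN2 are not in it. It shares NKD1, RNF43, ZNRF3 and NOTUM with the 57 genes. Of its 21 genes 0 passed in the shared component in limma and 3 had an unadjusted p under 0.05. In the alternating one BMP4 was negative (-0.21, limma adjusted p = 0.0395) and 7 of the 21 had an unadjusted p under 0.05 (33.3%). MYC (-0.11), CCND1 (0.092) and CD44 (0.026), targets in many tissues, did not pass. Of 33 further Notch pathway genes, among them the protease ADAM10 (0.076) and the target NRARP (-0.072), 0 passed in either component in limma. At an unadjusted p under 0.05 they were 2 in the shared and 8 in the alternating one. The share of all genes at that level was 14.6% in the shared and 25.6% in the alternating component.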

How the data were processed

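RNA of A549 cultures was compared on 4 two-colour cDNA arrays. Per the submitters' design text, the authors ran ArrayMagic with variance-stabilizing normalization on the GenePix files and then limma. The deposited values are log ratios per probe, of unstated base and orientation. Such normalization compresses ratios of dim spots, and as the table used here holds no intensities, no filter on dim probes was possible. For all 113 member probes the gene ID was found in the RefSeq table of GRCh38.p14. 848 probes with several symbols and 4805 unnamed ones entered the fits only.

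The log ratios were fitted as deposited in limma 3.58.1 (R 4.3.3) with an intercept and a dye term, leaving 2 residual degrees of freedom. Gene values are means of a gene's probes. The fit was tested on simulated data. Named were all members past the threshold, the largest statistic in each role without one, and 12 fixed genes. WNT5A passed at the gene level only. The alternatives were a fit without the dye term, subtracted array medians, quantile normalization, robust moderation (statmod 1.5.0), a threshold of 0.01, probes with 1 symbol only, medians of a gene's probes and leaving out each array. 1 symbol of the Wnt ligands is not reported here. Members, lists and motifs were chosen with earlier results of these data known. The precision is limited by the number of arrays. Plots used matplotlib 3.10.9 (Python 3.11.15).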

Additional observations from a re-analysis of the deposited data

Results flagged for a closer look

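In 4 of 113 member probes 1 array lay far from the other 3, by Dixon's test at the 95% level. For values without a dye effect chance alone does this in about 1 of 20 groups, which is more than was seen. A probe that follows the dyes sets arrays 1 and 3 against arrays 2 and 4, which can hide a single outlying array. The count is therefore no measure of how even the arrays were. HEY1 probe 2 stood at 0.147 on array 4, where the others lay between -0.127 and -0.0949. LRP5 probe 1 stood at -0.0881 on array 4, the others between 0.139 and 0.149. LRP5 probe 2 stood at -0.307 on array 1, the others between 0.0956 and 0.162. NUMB probe 2 stood at 0.115 on array 1, the others between -0.0862 and -0.0658. None of the 4 passed the threshold in either component.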

How the results depend on the processing

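DKK1, NOTCH3 and SFRP1 probe 1 in the shared component and LGR4 probe 1 in the alternating one passed at an adjusted p of 0.05 in all 9 alternatives run on them. Over these, DKK1 lay between 1.30 and 1.46, NOTCH3 between 1.08 and 1.12, SFRP1 probe 1 between -0.53 and -0.51 and LGR4 probe 1 between 0.48 and 0.66. Each of the other 12 calls at the probe level was lost in at least 2. In the order shared probes, alternating probes, shared genes, alternating genes, the 8, 8, 5 and 4 calls became 3, 1, 2 and 0 without the dye term. In the same order that fit called 0.867% and 0.383% of all probes and 1.25% and 0.0801% of all genes. At an adjusted p of 0.01 the counts became 4, 1, 2 and 0, and a stricter threshold can only lower counts, outside the members too. In limma the unadjusted p was under 0.05 for 15 and 18 genes where the count was 0. Leaving out 1 array in turn gave 3 to 8, 1 to 10, 2 to 8 and 0 to 16. At the gene level the higher counts without arrays 1 and 3 came with 18.4% and 12.7% of all genes called in the alternating component, and 6.39% and 11.8% in the shared one. Subtracted medians, quantile normalization, robust moderation, probes with 1 symbol and medians of probes moved each count by at most 2. No call changed sign. Means near 0 that did were NOTCH1 with subtracted medians (-0.0046) and, on leaving out 1 array, NOTCH1 (-0.0438 to 0.0509), LEF1 (-0.0855 to 0.0455), HEY1 (-0.0792 to 0.0148), LGR4 (-0.003 to 0.1691) and CTNNB1 (-0.0382 to 0.0099). No cause of these changes was tested. Each value is already a difference between 2 cultures paired on 1 array. The fits of these values therefore already use that pairing. The labels give the values a single group, so a replicate block has nothing further to pair. Without intensities the signal over background behind a value is unknown.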
